A study of Mus musculus with 10 samples.

Results

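The interferon regulatory factors (IRFs) are transcription factors that switch on the genes of the antiviral state and that direct the development of several blood cell lineages. Counts were examined for the 8 listed members of the family, Irf1, Irf2, Irf3, Irf4, Irf5, Irf7, Irf8 and Irf9, among 55401 genes counted in the liver of female mouse fetuses near term (embryonic stage E18.5). They were taken by gene symbol from a list of the family, drawn up with earlier results of these data known, and each symbol matched 1 gene. Libraries came from 5 Mir483Pat-KO fetuses and 5 wild-type (WT) littermates, 1 library per fetus, and held 10831350 to 14765880 counted fragments each. The Mir483Pat-KO fetuses had inherited a deletion of Mir483, a microRNA gene in an intron of the imprinted Igf2, from the father and an intact copy from the mother. The labels name no treatment, and which fetuses shared a litter is not given. The mutation was made in C57BL/6N-derived JM8.F6 embryonic stem cells, its selection cassette was removed by Cre before the cells were injected, and the line was maintained on C57BL/6J. The question of the experiment was how constitutive loss of Mir483 alters gene expression in a tissue that produces IGF1 and IGF2 in quantity. The deleted gene was checked first. The Mir483 gene gave 10 to 22 fragments in each WT library and 0 in each of the 5 Mir483Pat-KO libraries, where the limit that a count of 0 allows is 0.197 to 0.271 CPM (fragments scaled by library size). Libraries of polyadenylated RNA do not measure the mature microRNA.

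IRFs share a DNA-binding domain that reads GAAA repeats. IRF3 and IRF7 are held inactive in the cytoplasm until sensors of foreign nucleic acid cause their phosphorylation, after which they turn on the type I interferon genes. Secreted interferon acts through its receptor to assemble a complex called ISGF3, with STAT2 and IRF9 among its subunits, which binds the interferon-stimulated response element (ISRE) of target genes, Irf7 and Irf9 among them. IRF1 and IRF2 bind overlapping sites as activator and antagonist, while IRF4, IRF5 and IRF8 belong mainly to lymphoid and myeloid cells, which the fetal liver produces as the site of blood formation.

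Expression of 2 members was lower in Mir483Pat-KO than in WT livers. Irf7, the amplifier of the interferon response, stood at 48.4% of its WT level, and Irf9, the DNA-binding subunit of ISGF3, stood at 68.8%. The genes for the inducible Irf1, the antagonist Irf2, the constitutive sensor-driven Irf3 and the lineage factors Irf4, Irf5 and Irf8 did not pass the test. No member was higher at the threshold. A gene is said to have passed where the adjusted p of edgeR's quasi-likelihood test, corrected over the 14098 genes tested, was under 0.05. Of all genes tested, 2.76% passed as lower and 2.43% as higher, against 2 and 0 of these 8.

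The sequences of the deleted microRNA are shown because a match to its seed marks a possible target site. They are given as RefSeq has them on the GRCm38.p6 assembly, 5′ to 3′, with the seed (bases 2 to 8) in capitals. Both arms lie on the minus strand of chromosome 7.
mmu-miR-483-3p: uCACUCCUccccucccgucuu
mmu-miR-483-5p: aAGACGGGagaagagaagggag
A stretch of 7 bases complementary to the 3p seed, AGGAGTG, was looked for in every member's longest annotated 3′ UTR. It occurred once in Irf5 and at 2 places in Irf8, and not in the other 6 members. The complement of the 5p seed occurred in none of the 8. Of 21769 genes with an annotated 3′ UTR, 11.41% held the 3p match and 2.91% the 5p match. The 3 sites are shown with the bases around them because they are the places where loss of the microRNA could act on these transcripts, with the matching bases in capitals.
Irf5, base 362 of 537: ctagcaaaacctgccaAGGAGTGttgtg
Irf8, base 1359 of 1522: ccccctcagtcaaagcAGGAGTGtccct
Irf8, base 1433 of 1522: ccttccacctgcctcaAGGAGTGctagt
None of the 3 matches was followed by an A, the base that often strengthens such a site. Whether loss of the microRNA acts on any member through such a match was not tested.

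The promoters show the other kind of sequence that belongs to this family. RefSeq windows from 250 bases before to 50 bases after the start were found for all 8 members, 11 windows in all, and were searched on both strands for the ISRE core (GAAA followed after 2 bases by a second GAAA), the shorter IRF core AANNGAAA and the interferon gamma-activated element TTCNNNGAA, called GAS. The IRF core can overlap the ISRE core. Of 32851 mouse promoters of this length, 3.44% held the ISRE core, 23.92% the IRF core and 8.3% the GAS. Matches lay in 1 window each of Irf1, Irf2 and Irf8, and the stretches that hold them are printed with the matches in capitals.
Irf1, chr11:53769904-53769952, plus strand: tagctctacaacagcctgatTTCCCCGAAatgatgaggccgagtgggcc
Irf2, chr8:46739495-46739549, plus strand: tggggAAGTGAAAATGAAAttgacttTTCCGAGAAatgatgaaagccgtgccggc
Irf8, chr8:120736167-120736233, plus strand: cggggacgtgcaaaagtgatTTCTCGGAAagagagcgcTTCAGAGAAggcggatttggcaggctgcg
The first run of capitals in Irf2 joins the ISRE core GAAAATGAAA, which begins at position -241 from the start, with IRF core matches that begin at -245 and -239. The second run is a GAS. Irf7, the member with the largest change, held none of these letters in its window, of which the 250 bases before the RefSeq start are shown.
Irf7, chr7:141266425-141266674, minus strand: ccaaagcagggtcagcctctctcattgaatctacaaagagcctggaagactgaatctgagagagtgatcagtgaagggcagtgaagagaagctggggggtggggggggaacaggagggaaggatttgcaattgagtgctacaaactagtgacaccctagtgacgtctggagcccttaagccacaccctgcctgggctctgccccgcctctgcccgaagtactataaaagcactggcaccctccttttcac
The windows of Irf3, Irf4, Irf5 and Irf9 also held no match. A match or its absence describes the letters of these windows only, and the annotated starts of Irf7 and Irf9 in GENCODE differ from the RefSeq starts used here.

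Irf7 (ENSMUSG00000025498, GRCm38 chromosome 7, 141262706 to 141266481, minus strand) is the member that interferon induces and that in turn drives the interferon alpha genes. In the WT libraries its level was 67.0, 70.0, 72.8, 81.4 and 89.4 CPM. In the Mir483Pat-KO libraries it was 40.4, 27.6, 51.4, 34.0 and 30.7 CPM, so that the highest mutant library lay below the lowest WT library. The WT mean was 76.1 ± 9.17 CPM and the mutant mean 36.8 ± 9.44 CPM (SD, n = 5 each). The log2 fold change was -1.05 (SE 0.136, adjusted p = 0.00133), a 2.07-fold lower level, and Irf7 ranked 8 by p among the genes tested. All mutant libraries lay below all WT libraries for 3.26% of genes tested. Irf7 was the only member past the stricter rule of a passed test and a fold change over 1.5, which 0.872% of genes met as lower. The spread was wider in the mutant group, with a coefficient of variation of 25.6% against 12.1% in WT. Mutant replicates 1 and 3 kept the most Irf7.

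Irf9 (ENSMUSG00000002325, GRCm38 chromosome 14, 55603571 to 55610030, plus strand) encodes the subunit that gives ISGF3 its DNA specificity. Its level was 84.9, 78.8, 90.0, 84.9 and 86.2 CPM in the WT libraries and 68.8, 48.8, 70.9, 58.2 and 45.5 CPM in the mutant libraries. The groups did not overlap, and the same mutant replicates, 1 and 3, were the highest. The means were 84.9 ± 4.0 and 58.4 ± 11.4 CPM (SD, n = 5 each), a log2 fold change of -0.54 (SE 0.107, adjusted p = 0.0103). The difference was 1.45-fold, under the stricter rule in the test of all 10 libraries. Without mutant replicate 1 or without mutant replicate 3 Irf9 also passed the stricter rule, at log2 fold changes of -0.61 and -0.63. The coefficient of variation was 19.6% in the mutant libraries and 4.71% in WT.

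**Figure D1:**
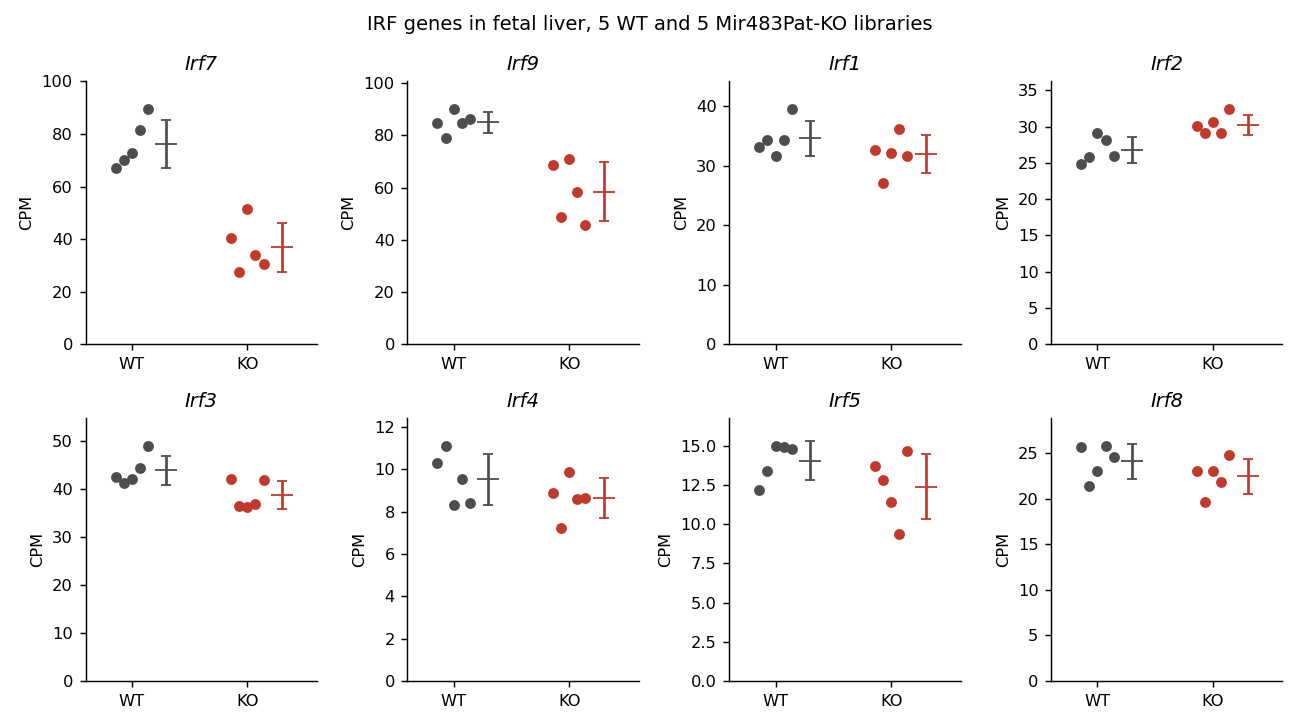
Level of each IRF gene in CPM on a linear axis that starts at 0, 1 point per library, with the mean and SD of 5 WT (grey) and 5 Mir483Pat-KO (red, marked KO) libraries beside the points. Irf7 and Irf9 show no overlap between groups, with WT means of 76.1 and 84.9 CPM and mutant means of 36.8 and 58.4 CPM, while the ranges of the other 6 genes overlap or touch.

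The libraries carry identification numbers in 2 separate ranges, whose meaning the labels do not state. The lower range held WT replicates 1 to 4 and mutant replicates 1 and 2, and the upper range held WT replicate 5 and mutant replicates 3, 4 and 5. In the lower range Irf7 was 67.0 to 81.4 CPM in WT and 40.4 and 27.6 CPM in the mutant. In the upper range the 1 WT library had 89.4 CPM and the mutant libraries 51.4, 34.0 and 30.7 CPM. With the range as a covariate the log2 fold change was -1.14 for Irf7 (adjusted p = 0.00133) and -0.54 for Irf9 (adjusted p = 0.0144). In the lower range alone, Irf7 still passed (-1.10, adjusted p = 0.0212) and Irf9 had nearly the same fold change but did not pass (-0.53, adjusted p = 0.12). The WT libraries had index numbers 53 to 57 and the mutant libraries 60 to 64, so that index and genotype cannot be told apart.

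Irf1 encodes the activator that interferon gamma induces, and it drives antigen presentation genes. Its level was 33.1, 34.3, 31.7, 34.3 and 39.5 CPM in WT and 32.7, 27.1, 32.1, 36.1 and 31.7 CPM in the mutant. The groups overlapped, with 1 mutant library below the lowest WT library. The log2 fold change was -0.11 (95% interval -0.30 to 0.07, adjusted p = 0.457), so a fall of the size of that of Irf9 (-0.54) lies outside the interval.

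Irf2 encodes the factor that competes with IRF1 for its sites, and it was the only member with a fold change above 0. It measured 24.8, 25.8, 29.1, 28.1 and 26.0 CPM in WT and 30.1, 29.1, 30.7, 29.1 and 32.4 CPM in the mutant. Of the mutant libraries, 4 lay above the highest WT library, and the log2 fold change was 0.18 (95% interval 0.02 to 0.33, adjusted p = 0.167). The unadjusted p was 0.0276, and the difference did not pass after correction.

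Irf3 is made at a steady level in most cells and is controlled by phosphorylation, not by transcription. It measured 42.6, 41.3, 42.2, 44.4 and 49.0 CPM in WT and 42.2, 36.5, 36.3, 36.9 and 41.9 CPM in the mutant. The groups overlapped, and 3 mutant libraries lay below the lowest WT library. The log2 fold change was -0.18 (95% interval -0.34 to -0.02, adjusted p = 0.167), which did not pass. With offsets for GC content and length it was -0.09 (SE 0.0615, adjusted p = 0.483).

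The lineage-restricted members gave log2 fold changes from -0.18 to -0.10. Irf8, which directs monocyte and dendritic cell development, measured 25.7, 21.4, 23.0, 25.8 and 24.6 CPM in WT and 23.1, 19.6, 23.1, 21.8 and 24.8 CPM in the mutant (log2 fold change -0.10, 95% interval -0.28 to 0.08, adjusted p = 0.54). Irf5, the mediator of Toll-like receptor signals in macrophages and B cells, measured 12.2, 13.4, 15.0, 14.9 and 14.8 CPM in WT and 13.7, 12.8, 11.4, 9.38 and 14.7 CPM in the mutant (-0.18, 95% interval -0.42 to 0.07, adjusted p = 0.388). The groups overlapped for both, and both intervals reach from below 0 to above it.

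Irf4, which acts in B and plasma cells and in activated T cells, was the lowest member. It measured 10.3, 11.1, 8.3, 9.55 and 8.39 CPM in WT and 8.9, 7.22, 9.88, 8.57 and 8.62 CPM in the mutant. The groups overlapped, and the log2 fold change was -0.14 (95% interval -0.39 to 0.11, adjusted p = 0.53). The interval of Irf4, at 1168 fragments over all libraries, was wider than that of Irf3 at 5354.

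**Figure D2:**
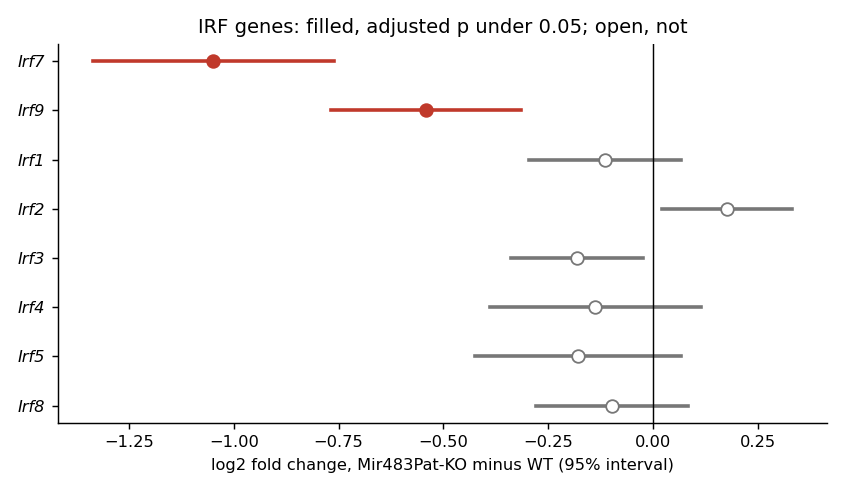
Log2 fold change of each IRF gene, Mir483Pat-KO minus WT (5 libraries each), with its 95% interval from the quasi-likelihood fit. Filled points passed at an adjusted p under 0.05. Irf7 at -1.05 and Irf9 at -0.54 have intervals wholly below those of Irf2, and the interval of Irf7 does not meet that of any member but Irf9.

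Over the family, 7 of 8 log2 fold changes were below 0, where 49.1% of all genes tested were, and the median was -0.16 against 0.0042 for all genes tested. The log2 ratio of 2 members within the same library is given as a description, with no test, since these ratios were chosen after the values had been seen. The ratio of Irf7 to Irf3 had a mean of 0.79 ± 0.0908 in WT and -0.10 ± 0.378 in the mutant (log2, SD, n = 5 each). That of Irf7 to Irf9 had a mean of -0.16 ± 0.165 and -0.68 ± 0.154, while the 95% intervals of the fold changes of Irf7 (-1.34 to -0.76) and Irf9 (-0.77 to -0.31) still met. That of Irf9 to Irf3 had a mean of 0.95 ± 0.101 and 0.57 ± 0.319.

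Levels between genes were compared per length of annotated exon and per library size (RPKM). In WT livers the order was Irf7 (20.2 ± 2.43 RPKM), Irf9 (15.8 ± 0.743), Irf3 (12.8 ± 0.887), Irf1 (8.69 ± 0.739), Irf5 (4.84 ± 0.431), Irf2 (3.62 ± 0.242), Irf8 (3.41 ± 0.267) and Irf4 (1.94 ± 0.25) (SD, n = 5). Ranges of neighbours did not overlap except those of Irf2 and Irf8. In Mir483Pat-KO livers Irf3 (11.3 ± 0.869 RPKM), Irf9 (10.8 ± 2.13), Irf7 (9.75 ± 2.5) and Irf1 (8.04 ± 0.805) came first, and the ranges of neighbours among these 4 overlapped. Irf5 (4.27 ± 0.716) and Irf2 (4.09 ± 0.185) overlapped too, and were followed by Irf8 (3.19 ± 0.275) and Irf4 (1.76 ± 0.194). The lead of Irf7 over the constitutive Irf3, present in all 5 WT libraries, was therefore not present in the mutant means.

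**Figure D3:**
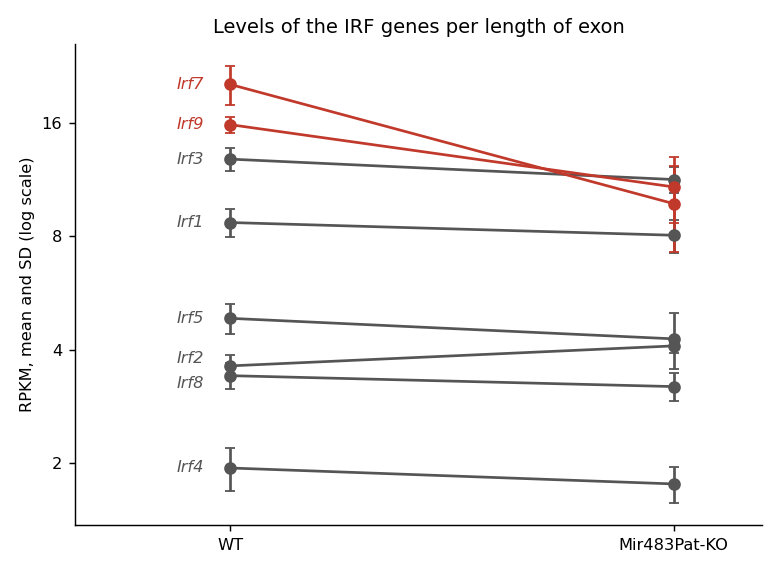
Mean level of each IRF gene per length of exon (RPKM, log axis) with its SD in 5 WT and 5 Mir483Pat-KO libraries. The lines of Irf7 and Irf9, the members that passed (red), drop from 20.2 and 15.8 RPKM to the range of Irf3 and Irf1, while the other lines (grey) belong to members that did not pass.

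The genes upstream of the family are the interferons, their receptors and the sensors. Of the 10 interferon genes listed, 8 had no fragment in any library, Ifnk had 1 and Ifng 3 over all 10 libraries, and none could be tested. Ifnar1 and Ifnar2, the subunits of the type I receptor, had similar ranges in both groups. Ifnar1 lay between 57.9 and 64.7 CPM in the WT libraries and between 58.0 and 62.4 CPM in the mutant ones, and Ifnar2 between 25.1 and 32.9 CPM and between 26.9 and 36.8 CPM. Neither differed beyond the spread (log2 fold changes -0.01 and 0.04, adjusted p = 0.951 and 0.858). Of the other receptor genes, Ifnlr1, Il10rb and Ifngr2 had the smallest p, and none of the 6 receptor genes passed.

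Of 11 receptor signalling genes tested, 2 were lower and 2 higher, where 2.76% of all genes tested were lower and 2.43% higher. Stat2, which acts with Irf9 in ISGF3, was at 94.0, 80.9, 80.3, 93.9 and 103 CPM in WT and at 72.8, 56.6, 59.7, 58.7 and 57.3 CPM in the mutant (log2 fold change -0.57, SE 0.0874, adjusted p = 0.00307). The groups did not overlap, and the fold change was close to the -0.54 of Irf9. Usp18, which blocks the type I receptor as negative feedback, also was lower (-0.83, SE 0.141, adjusted p = 0.00456). The genes that rose were Jak2 (0.30, adjusted p = 0.0265), a kinase of the interferon gamma receptor, and Socs3 (0.42, adjusted p = 0.0379), an inhibitor of cytokine receptors.

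Among 23 sensors, adaptors and kinases that act before IRF3, IRF5 and IRF7, 3 were lower and 0 higher (against 2.76% and 2.43% of all genes tested), with a median log2 fold change of -0.10. These were the RNA sensor genes Dhx58 (-0.90, SE 0.156, adjusted p = 0.00518), Ddx58 (-0.43, SE 0.0752, adjusted p = 0.0054) and Ifih1 (-0.52, SE 0.105, adjusted p = 0.0113), which are themselves known interferon-induced genes. The kinases that phosphorylate IRF3 and IRF7, Tbk1 and Ikbke, had log2 fold changes of 0.03 and 0.01 (adjusted p = 0.845 and 0.961) and were chosen after their values were seen. Of 14 tested partners and modifiers of IRFs, 2 were lower and 0 higher, against the same shares of all genes. Trim21, a ubiquitin ligase that acts on IRFs and is interferon-induced, fell by 0.65 on the log2 scale (SE 0.098, adjusted p = 0.00306), and Irf2bpl, named for its likeness to an IRF2-binding protein, by 0.61 (SE 0.147, adjusted p = 0.0271). Spib, the lymphoid partner of IRF4 and IRF8, had the next smallest p and did not pass (-0.49, adjusted p = 0.0564).

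Downstream, the ISRE-type targets were lower as a group. Of 33 genes listed and tested, 28 passed as lower (against 2.76% of all genes tested), 0 as higher, 17 by the stricter rule (against 0.872%), and all 33 log2 fold changes were below 0. The median was -0.64, against 0.0042 for all genes tested. The smallest p belonged to Oasl1 (-1.39, SE 0.183, adjusted p = 0.00133), Adar, the interferon-inducible RNA editing enzyme (-0.64, SE 0.0873, adjusted p = 0.00152), and Lgals3bp (-0.60, SE 0.087, adjusted p = 0.00243). Those that did not pass were Rsad2, Mx2, Ifi44, Herc6 and Samd9l, at -0.69, -0.46, -0.71, -0.29 and -0.01. For Oasl1 the WT libraries had 5.65 to 6.69 CPM, with a median of 5.70, and the mutant libraries 1.43 to 3.12 CPM, with a median of 2.17.

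Of 21 tested IRF1-type targets, mainly genes of antigen presentation and guanylate-binding proteins, 10 were lower and 0 higher, where 2.76% and 2.43% of all genes tested were, and the median was -0.33 against 0.0042. The smallest p belonged to Irgm1, an interferon-induced GTPase (-0.78, SE 0.0997, adjusted p = 0.00133), Nlrc5, the activator of class I antigen presentation genes (-1.13, SE 0.172, adjusted p = 0.00306), and Gbp3 (-0.85, SE 0.132, adjusted p = 0.00343). Irf1 itself did not pass. These lists were drawn up with earlier results of the same libraries known, so their counts are a description and not separate support for the values of Irf7 and Irf9.

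**Figure D4:**
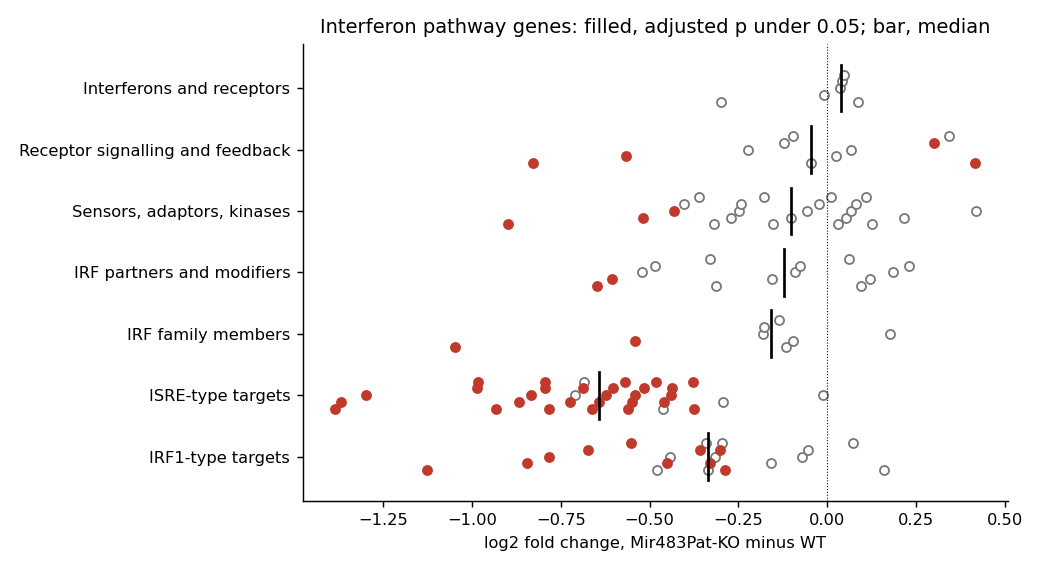
Log2 fold change of the tested genes in each list of the interferon pathway, Mir483Pat-KO minus WT, with filled points for genes that passed, open points for those that did not, and a black bar at the median of each list. The median was -0.64 in the ISRE-type targets and 0.04 in the interferons and receptors.

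The mutant livers differed among themselves in much the same order for several of these readouts. Relative to the WT mean on the log2 scale, Irf7 stood at -0.90, -1.45, -0.56, -1.15 and -1.30 in mutant replicates 1 to 5. The mean of the ISRE-type targets stood at -0.41, -0.995, -0.33, -0.83 and -0.99 in the same libraries. Replicates 1 and 3 were nearest to WT in both, and also in Irf9 (-0.30 and -0.26). In WT the same mean of ISRE-type targets ranged from -0.04 to 0.08. Irf1 in the mutant libraries ranged from -0.34 to 0.07 and did not set replicates 1 and 3 apart. The mean of the IRF1-type targets did so, at -0.28 and -0.27 in replicates 1 and 3 against -0.54, -0.40 and -0.41 in replicates 2, 4 and 5.

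**Figure D5:**
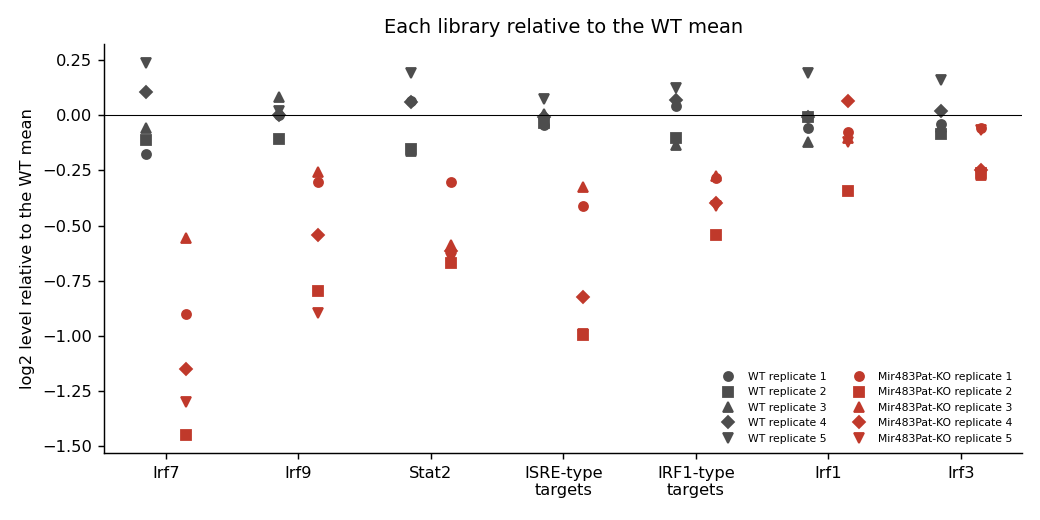
Log2 level in each library relative to the WT mean for Irf7, Irf9, Stat2, the mean of the ISRE-type and of the IRF1-type targets, Irf1 and Irf3, with 1 symbol per replicate (WT grey, Mir483Pat-KO red). Mutant replicates 1 (circle) and 3 (triangle) lie highest for Irf7, Irf9 and both groups of targets, with Irf7 at -0.90 and -0.56.

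Deviations of each library from its own group mean were compared between members, which leaves the genotype difference out. Of 28 pairs, none passed after correction, and 19 had a Pearson r above 0, with a median of 0.22. The highest was between Irf7 and Irf9, with r = 0.819 (exact permutation p = 0.0265, adjusted p = 0.477) and rho = 0.842 (exact permutation p = 0.0157, adjusted p = 0.22) over 10 libraries. Without the 2 libraries farthest from the median of Irf7, r was 0.745.

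Over all genes, those whose deviations were most like a member's were found among 12549 genes with an average log2 CPM of at least 1, over the 10 libraries. For Irf7 they were Usp18 (r = 0.956), Sp100, a nuclear body protein (0.948), and Kdm4a, a histone demethylase (0.916). For Irf9 they were the ISRE-type target Ifit1 (0.958), 1600020E01Rik (0.933) and Rilp (0.93). Of these, Usp18, Sp100 and Ifit1 were also lower in Mir483Pat-KO (adjusted p = 0.00456, 0.0107 and 0.0299), while Kdm4a, 1600020E01Rik and Rilp did not pass. For the other members the closest were Kxd1, Slc9a3r2 and Ech1 (Irf1), Trim58, Ltbp3 and Nynrin (Irf2), Sart1, Rab11fip1 and Golga2 (Irf3), 5033406O09Rik, Wdr73 and Cth (Irf4), Selenon, Aebp1 and Hspg2 (Irf5) and Tmco4, Tbc1d10b and Rftn1 (Irf8), with r from 0.907 to 0.965. None of these is in the lists of interferon pathway genes. With 10 libraries and so many genes, high r values arise for every member, and they are given as a description.

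In whole liver, fewer cells of a type and less RNA per cell cannot be told apart. Summed marker levels of the blood lineages that express Irf4, Irf5 and Irf8 were therefore set beside the members. The 16 macrophage markers summed to 1390 to 1620 CPM in WT and 1370 to 1690 CPM in the mutant, a ratio of means of 1.02 (exact permutation p = 0.714, adjusted p = 0.816 over 8 lists). Lyz2 made up the largest share of that sum, at 387 CPM in WT and 475 CPM in the mutant. Of the 16 genes 2 passed as lower and 0 as higher (against 2.76% and 2.43% of all genes tested), the Kupffer cell receptor gene Clec4f (-0.46, adjusted p = 0.0416) and the complement gene C1qa (-0.29, adjusted p = 0.0389), and the median log2 fold change was -0.06. The 10 B-lymphoid markers summed to 119 to 151 and 134 to 166 CPM (ratio 1.06, adjusted p = 0.572), and the 11 neutrophil and granulocyte precursor markers had the same ratio of 1.06 (adjusted p = 0.572). Of the 10 B-lymphoid genes 1 passed, as higher (against 2.43% of all genes tested), the recombinase gene Rag1 (0.47, adjusted p = 0.0169). Of the granulocyte genes none passed. The 7 dendritic cell markers, at 21.3 to 23.9 CPM in WT and 23.5 to 27.9 CPM in the mutant, gave a ratio of 1.15, and the 10 erythroid markers, at 16300 to 21000 and 19100 to 27000 CPM, gave 1.33 (adjusted p = 0.0952 each). Zbtb46 made up the largest share of the dendritic cell sum, at 14.3 CPM in WT and 16 CPM in the mutant. Of the dendritic cell markers 4 had enough counts to be tested, and none passed. Of the 10 erythroid genes 2 passed as higher (against 2.43% of all genes tested), among them the globin gene Hbb-bs (0.54, adjusted p = 0.012). The 7 T and NK cell markers gave 1.01 at 7.46 to 11.2 CPM over all libraries, and Cd3e had 4 fragments in all. Hepatocyte markers, with Alb far above the rest, gave a ratio of 0.916, and endothelial markers 0.919 (adjusted p = 0.159 each). Of the 7 hepatocyte genes Apoa1 passed as lower (-0.30, adjusted p = 0.0262), where 2.76% of all genes tested did. All mutant libraries lay below all WT libraries for Apoa1 and Hnf4a (-0.24, adjusted p = 0.054), against 3.26% of genes tested. Of 6 endothelial genes none passed, and 5 log2 fold changes were below 0 with a median of -0.13. All mutant libraries also lay below all WT libraries for Pecam1 (-0.20, adjusted p = 0.0884), against the same 3.26%. Of the T and NK cell markers 2 had enough counts to be tested, and neither passed. Their part in the lower Irf7 and Irf9 was not tested.

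Irf7 lies on the chromosome that carries the deletion, 1.39 Mb from Mir483 (142654924 to 142654996). Of 26 tested genes between them, 1 was lower (Slc25a22), 0 were higher, and the median log2 fold change was 0.02. Within 1 Mb of Irf7, 3 of 45 tested neighbours were lower and 0 higher, with a median of -0.09. They were Ifitm3, an interferon-induced membrane protein (-0.60, adjusted p = 0.00956), the cytochrome P450 gene Cyp2e1 (-1.45, adjusted p = 0.0109) and the carrier Slc25a22 (-0.42, adjusted p = 0.0107). Over all genes 2.76% passed as lower. Around Irf3, also on chromosome 7, 5 of 69 neighbours were lower (Abcc6, Aldh16a1, Atf5, Fcgrt and Myh14) and 0 higher, with the same median of -0.09. The neighbours of Irf1, Irf4, Irf5 and Irf8, 8 to 20 tested genes each, held none that passed as lower and 1 that passed as higher (Hilpda, near Irf5). Those of Irf2 held 1 lower (Slc25a4) and 1 higher (Primpol) of 24. Around Irf9, on another chromosome, 1 of 53 was lower, the proteasome activator gene Psme1 (-0.29, adjusted p = 0.0299). Overlap with neighbouring exons was small, at 1.19% of Irf7 exon (Phrf1, opposite strand) and 2.28% of Irf9 exon (Rnf31, same strand), and reached 14.15% of Irf5 exon (Tnpo3, opposite strand). The counting's use of strand is not given in the sources used here, so fragments within those stretches may belong to either gene.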

How the data were processed

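Whole-liver RNA of 10 female E18.5 fetuses (5 WT, 5 Mir483Pat-KO, grouped by the labels) was made into TruSeq stranded polyA libraries. The authors aligned paired reads with STAR to GRCm38 (processing notes) and deposited 1 table of raw gene counts, which was used as deposited. Read trimming, the treatment of multi-mapping reads and the strand setting are not given in the sources used here. Of 55401 gene identifiers, 55141 matched a symbol. The members and gene lists, and the tests on them, were chosen with earlier results of these data known.

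Counts were scaled by TMM, filtered with filterByExpr (14098 genes kept) and fitted with edgeR 4.0.16 (R 4.3.3) by the quasi-likelihood test without covariates, with Benjamini-Hochberg adjustment over all genes tested. A passed gene had an adjusted p under 0.05, and the stricter rule also asked for a fold change over 1.5. CPM used TMM-scaled library sizes, and RPKM the summed exon length of GENCODE. Log2 CPM used a prior count of 2. Single values were compared by two-sided exact permutation over all arrangements of the libraries. Limits from 0 counts used 3 counts and cover counting error only. On simulated counts for 14098 genes, 90% of 200 genes changed 2-fold were recovered, with 5.3% false calls. No 2 libraries of a group agreed within sampling noise (chi-square at least 4.85 times its degrees of freedom in each of 20 pairs). Total counts did not differ detectably between groups (exact permutation p = 0.817).

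Named were all members, the 3 genes of each pathway list with the smallest p, Ifnar1, Ifnar2, Stat2, Mir483 and, for each member, the 3 genes with the most similar deviations. Socs3, Tbk1, Ikbke, the ISRE-type targets that did not pass, the genes near members that passed, the cell type markers, Socs1 and Batf3 were named after their values were seen, and so were the IRF core motif and the ratios between members. The hepatocyte gene listed as Tf matched no symbol, leaving 7 of 8. A further gene of the receptor signalling list is not reported here and was left out of that list's counts.

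Alternatives were DESeq2 1.42.0, DESeq2-type size factors in edgeR (RLE), no low-count filter, at least 10 counts required of all libraries, a block for the replicate number, a covariate for the identification number range, the lower range alone, GC content and length offsets, and each library left out in turn.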

Additional observations from a re-analysis of the deposited data

Results flagged for a closer look

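None of the 8 IRF genes had a library set apart from its group by the test of the largest gap, which divides the gap between an extreme library and its nearest neighbour by the range of the group and asks for more than 0.71 with 5 libraries. The test covered 57 groups of named genes and set a library apart in 6 of them (10.5%), where chance gives about 1 in 20 groups. Among genes of the IRF pathway, Stat2 in mutant replicate 1 was the highest of its group at 72.8 CPM, with 59.7 CPM next to it. Dhx58 in WT replicate 5 was the highest at 19.3 CPM (nearest 14.6), and Gbp3 in the same library at 13.5 CPM (nearest 10.5). Spib in mutant replicate 5 was the lowest at 9.41 CPM (nearest 11.9). Ifnlr1 was lowest in WT replicate 3 at 4.15 CPM (nearest 6.55) and highest in mutant replicate 2 at 6.43 CPM (nearest 5.07).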

How the results depend on the processing

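Each member was recomputed under 18 alternatives, 144 values in all, of which 143 kept their direction and their side of the threshold. Irf7 passed under all 18, with log2 fold changes from -1.21 to -0.96 and adjusted p from 3.24e-16 to 0.0212. Irf9 ranged from -0.63 to -0.47, with adjusted p from 2.3e-06 to 0.12. It did not pass in the lower identification number range alone (-0.53), where only 6 libraries remain and 1 member passed in place of 2. Members past the stricter rule numbered 1 to 2 when single libraries were left out, the second being Irf9. No other member passed under any of the 18, over which log2 fold changes ranged from -0.19 to -0.06 for Irf1, 0.13 to 0.20 for Irf2, -0.22 to -0.09 for Irf3, -0.28 to -0.08 for Irf4, -0.26 to -0.08 for Irf5 and -0.17 to -0.05 for Irf8. The replicate numbers were not treated as pairs in the main fit. Same-numbered libraries deviated together with r from -0.05 to 0.26 (mean 0.0871, against -0.0217 for other pairs). Of the 5 WT libraries, 2 were closest to the mutant library of their number. With so few pairs, these values cannot decide whether the numbers pair the fetuses. With the replicate block, 2 members passed, Irf7 at -1.07 and Irf9 at -0.56, while genes passing as lower went from 389 to 596 and as higher from 342 to 742. Those counts were 612 and 555 with DESeq2, 625 and 633 without the filter, 20 and 3 in the lower range alone, and 646 for higher with the range as a covariate. Leaving out WT replicate 5 or mutant replicate 2 or 4 gave 239, 225 and 192 lower, and leaving out single libraries gave as few as 87 higher (mutant replicate 4). The cause was not tested. The median over all genes tested stayed between -0.0085 and 0.0047. The interferon genes had 0 to 3 fragments each over all libraries. Whether depth limits their detection was not tested.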

Other observations

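Genes of the pathway below the low-count filter were not tested. For Socs1, the feedback inhibitor of JAK kinases, all mutant libraries lay below all WT libraries, with a WT mean of 1.04 ± 0.296 CPM and a mutant mean of 0.406 ± 0.103 CPM (SD, n = 5 each). The same held for Batf3, a partner of IRF8 and IRF4 in dendritic and T cells, at 0.688 ± 0.204 and 0.364 ± 0.0895 CPM. They rest on 94 and 69 fragments over all 10 libraries and were named after their values were seen. Of the genes that were tested, 3.26% had all mutant libraries below all WT libraries.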
